A study of Thermothelomyces thermophilus ATCC 42464 with 24 samples.

Results

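The genes described here are the 68 of 9110 genes of Myceliophthora thermophila, a heat-loving filamentous fungus that degrades cellulose, whose RNA was high on glucose in the strain labelled Δcre-1 and had not risen to the same extent in the wild type (WT) after 2 d on cellulose. They were chosen by level in 3 groups of RNA-seq libraries. In CPM, the count of a gene per 1000000 counts of its library, averaged over 2 libraries, a gene had at least 50 CPM in Δcre-1 on glucose, at least 8 times the WT glucose mean plus 1 CPM, and less than 8 times that same quantity in WT on Avicel at 2 d. The rule was met by 72 genes and set aside 8 genes by name, 4 of which had met it. The values of these 3 groups are therefore given as a description and carry no test.

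The series had 12 groups of mycelium grown at 45 °C. Cultures on 2% glucose, taken at 24 h, gave 2 libraries each labelled Δcre-1, Δgrf-1, Δgrf-3 and ΔlaeA, 1 library of Δgrf-2 with whole counts, and 2 libraries of WT. On Avicel, a microcrystalline cellulose, ΔlaeA and WT had 2 libraries each at 2, 4 and 6 d. By the study's methods each deletion exchanged the coding region of a gene for a selection marker with the help of Cas9, in the strain ATCC 42464, and how many clones stand behind a strain is not given in the sources used here.

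In filamentous fungi, CRE-1 (CreA in Aspergillus) is a zinc finger repressor that on glucose holds down genes for the use of other carbon sources, including cellulase and transporter genes, a process called carbon catabolite repression. Genes under this control can need an inducer such as cellulose besides release from the repressor, or can be transcribed once the repressor is gone. LaeA is a putative methyltransferase that acts on many genes at once, and Grf-1 to Grf-3 are transcription factors that the study calls growth regulatory factors. The Δcre-1 strain defines the gene set, so the target sequence with which Cas9 was directed to cre-1 is shown, read 5′ to 3′ from the study's primer list.
cre-1 deletion guide: gtgttggagcaactccgctt

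Totals ran from 18114947 to 33937501 counts per library, and a count of 3 stood for 0.0884 to 0.166 CPM, below which nothing is read. All 68 genes had more than 3 counts in all 23 libraries. The counts of cre-1 (Mycth_2310085) went against the label, with 1649 and 1713 CPM in Δcre-1, against 499 and 817 CPM in WT on glucose. laeA (Mycth_2294559) likewise had 279.7 and 274 CPM in ΔlaeA on glucose against 18.2 and 27.3 CPM in WT, and 303 and 326 CPM in ΔlaeA against 104 and 134 CPM in WT at 6 d. For grf-1 (Mycth_37566) the libraries had 209 and 205 CPM in Δgrf-1 against 126 and 207 CPM in WT, and for grf-3 (Mycth_2309668) 92.7 and 70.5 CPM in Δgrf-3 against 70.4 and 59.4 CPM in WT, so neither was lower in its deletion. Only grf-2 (Mycth_2089183) was lower, at 118 CPM in Δgrf-2 against 207 and 199 CPM in WT, and it was as low in the other Δgrf strains. Where within these genes the reads fell cannot be seen from counts, so strains are called by their labels here, and all directions given below depend on the labels being right. The pairs of libraries differed in how close they were. At least 2-fold differences between replicates were found for 26 of the 68 genes in Δgrf-3 (38.2%, beside 9.10% of all 9110 genes). In WT on glucose they were found for 12 (17.6%, beside 3.40%). On Avicel at 4 d they were found for 8 in WT (11.8%, beside 3.80%) and 5 in ΔlaeA (7.35%, beside 1.35%). The other pairs had 0 or 1 such gene. The labels name no separate cultures for the glucose libraries, so p-values here reflect just the spread among these libraries, which may be technical. No listed product text names a spore protein, so that cell type was not examined.

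The 68 genes took 8.99% and 9.01% of all counts in the Δcre-1 libraries, against 0.484% and 0.634% in WT on glucose and 1.06% and 0.878% in WT on Avicel at 2 d. Their mean level in Δcre-1 ran from 55.6 to 8242 CPM with a median of 479 CPM, and in WT on glucose from 1.18 to 538 CPM with a median of 31.8 CPM. The ratio of these means was between 8.24 and 98.8, with a median of 16.5. The 2 Δcre-1 libraries lay within 7.47% of their mean for every one of the 68 genes. The set was uneven, since the first 15 genes by level held 74.2% of its counts in Δcre-1. Per length of gene the order changed at the top, with Mycth_45669, a gene of 264 counted bases, at 21107 RPKM (reads per kilobase of gene and 1000000 reads), ahead of Mycth_87219 at 8881 RPKM. Fitted with library sizes scaled by TMM (trimmed mean of M-values), the 68 genes had a median log2 difference of 4.65 between Δcre-1 and WT, from 3.64 to 7.22. With library totals in place of TMM, as in the rule, the median of all genes in this comparison fell by 0.60 on the log2 scale.

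**Figure D1:**
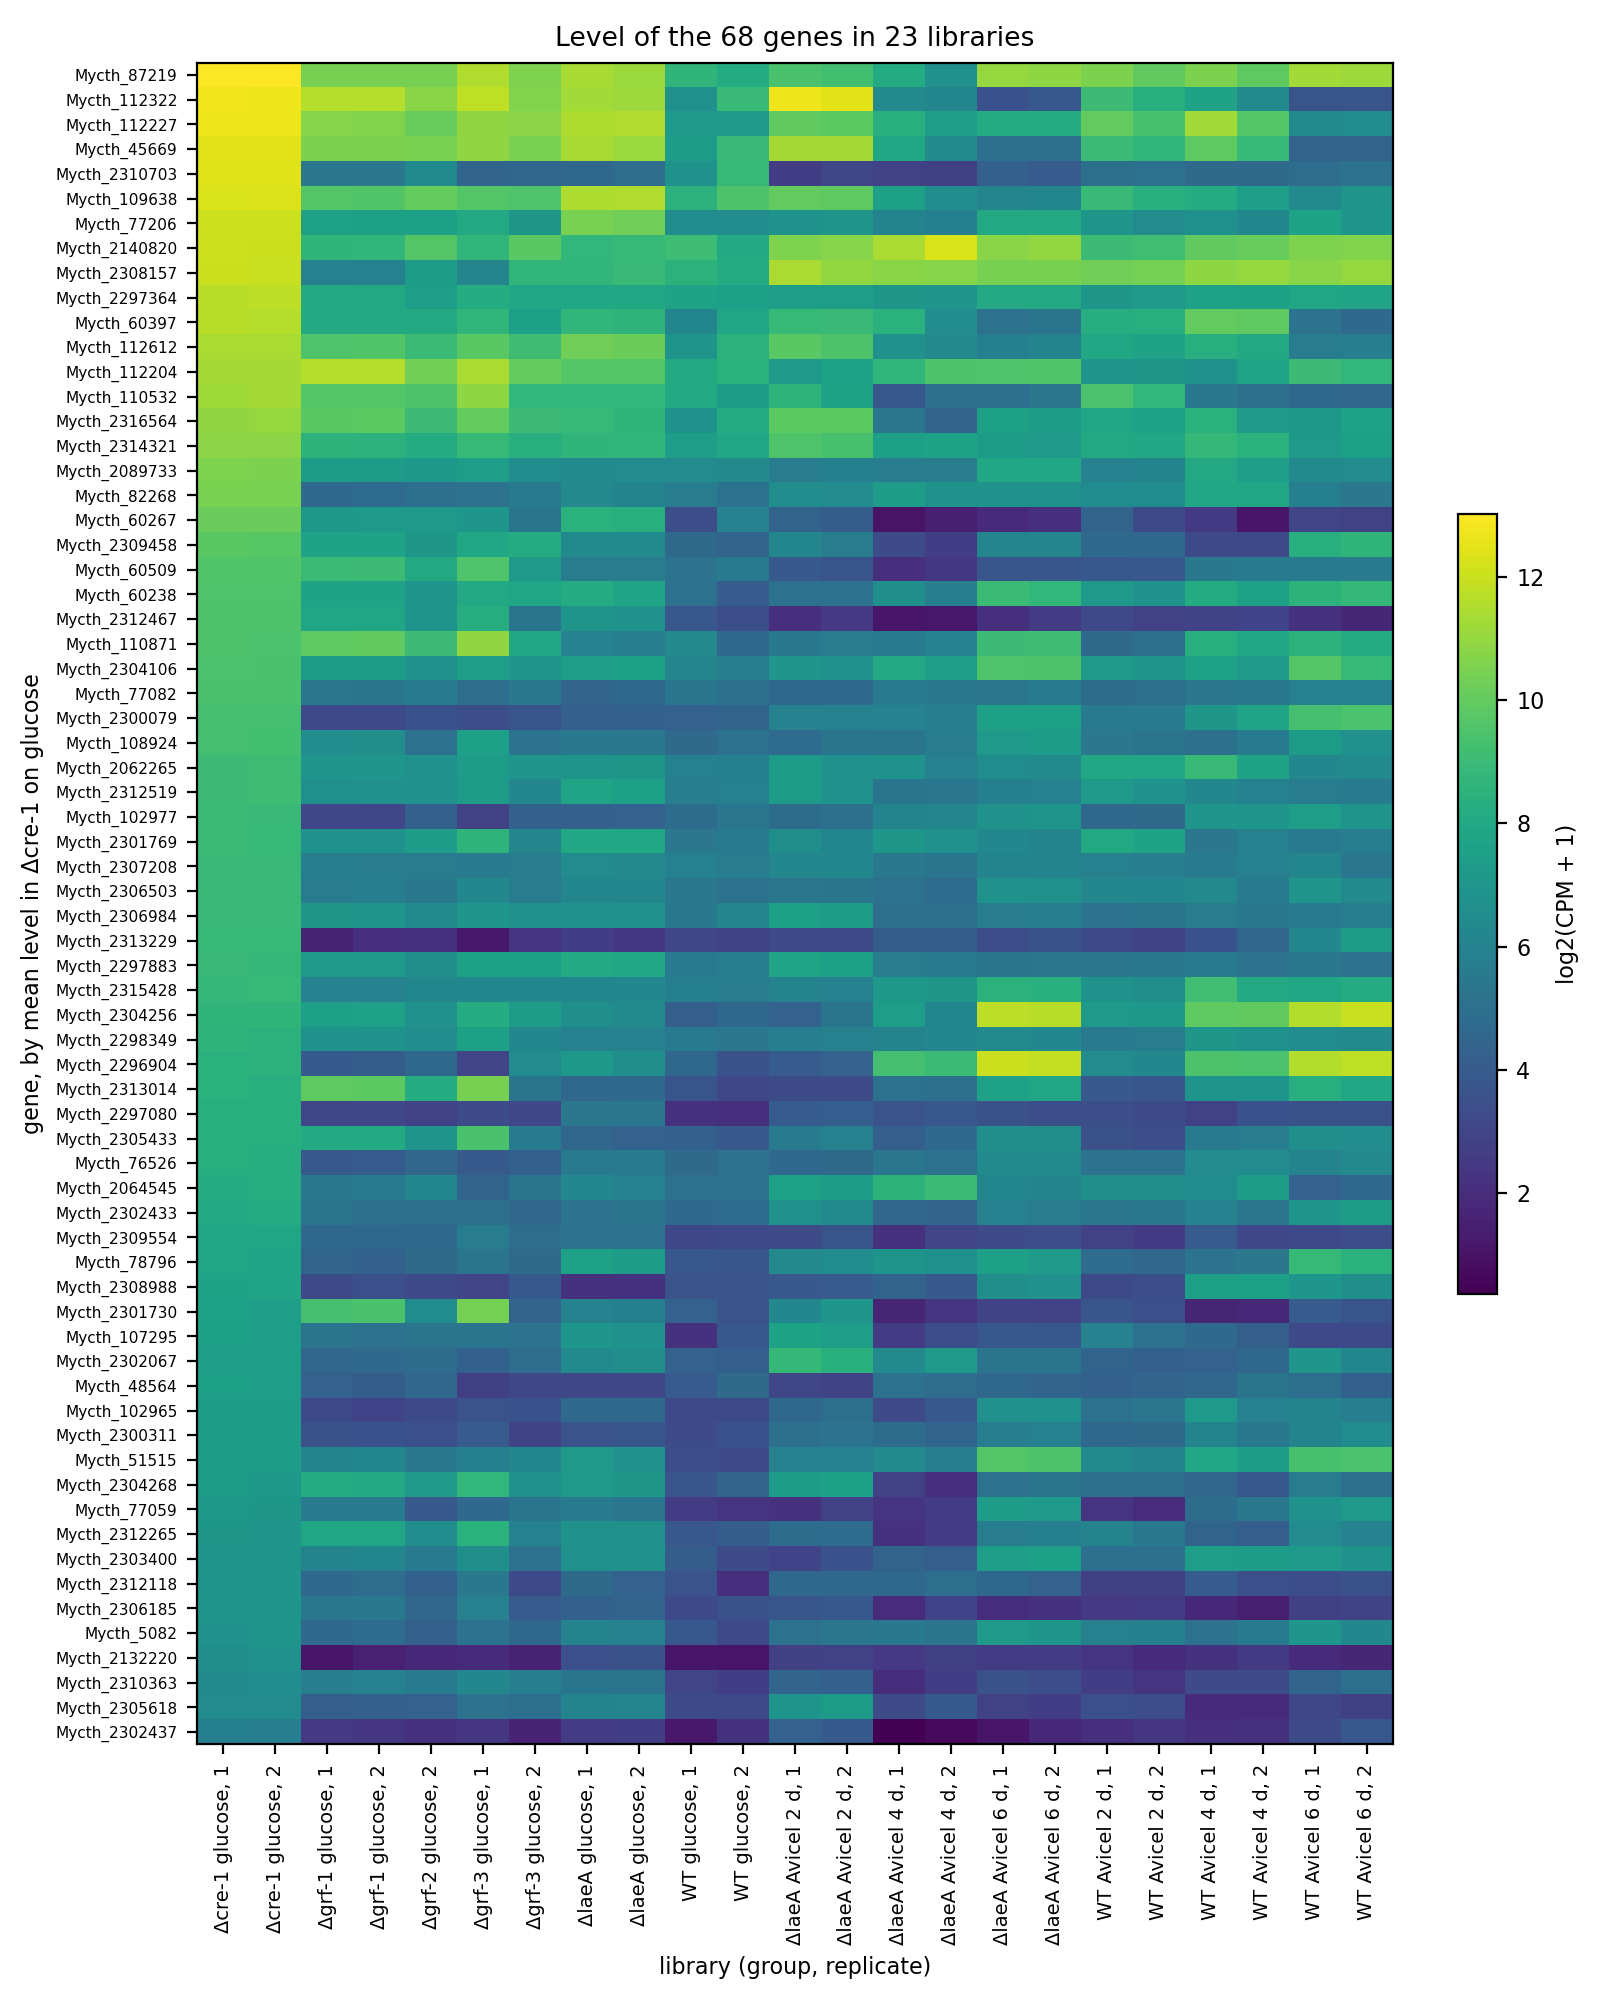
Levels of the 68 genes, in rows by mean level in Δcre-1 on glucose, in 23 libraries, in columns, as log2(CPM + 1). Δcre-1 has the highest mean of the 12 groups for 48 of the 68 genes. The rule favours this by choosing genes that are high in Δcre-1, so nothing is read from it. Brighter cells elsewhere mark genes such as Mycth_2304256 and Mycth_2296904 that were higher on Avicel at 6 d.

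The values next to each limit of the rule show how the set was bounded. Just inside the level limit were Mycth_2302437 at 55.6 CPM and Mycth_2305618 at 88.2 CPM in Δcre-1, and just outside it Mycth_2305357 at 49.5 CPM and Mycth_2299846 at 39.2 CPM. For the ratio to WT on glucose, Mycth_48564 (8.02) and Mycth_2315428 (8.09) were inside and Mycth_2092086 (7.70) and Mycth_2302660 (7.42) outside. For the Avicel limit, Mycth_51515 (7.20) and Mycth_2304256 (6.42) were inside, and Mycth_2305952 (9.88) and Mycth_2312477 (17.5) outside. Only 3 of the 75 genes that met both Δcre-1 limits were left out for having risen on Avicel at 2 d, so the Avicel clause removed few genes.

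A product text was given for 13 of the 68 genes by a shortened copy of the study's gene table, which lists 1266 genes and is not a full annotation. No gene in the lists formed from its texts has an ID that sorts, as text, after Mycth_2107104. Most of the 68 genes have IDs that do, so a missing text says nothing about what they encode. Central carbon metabolism was represented by Mycth_112227, a phosphoketolase, and by Mycth_110871, of the isocitrate lyase and phosphorylmutase family. The best known member of that family opens the glyoxylate cycle. A phosphoketolase splits a sugar phosphate into acetyl phosphate and a smaller sugar phosphate. Mycth_112227 stood at 6643 and 6643 CPM in Δcre-1 against 142 and 150.0 CPM in WT on glucose. Mycth_110871 stood at 718 and 703 CPM against 80.3 and 23 CPM in the same groups. The 8 genes that the rule set aside include 5 of the 6 carbon metabolism genes that the study followed.

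Transport across the membrane was represented by 3 genes. Mycth_2089733, an amino acid transporter, had 1523 and 1497 CPM in Δcre-1 against 86.9 and 78.4 CPM in WT on glucose. The sugar transporter Mycth_108924 had 605 and 589 CPM against 25.7 and 34.5 CPM, and Mycth_102977, a permease of the major facilitator superfamily, 505 and 486 CPM against 27.7 and 40 CPM. All 3 were low in WT on Avicel at 2 d too, at 23.3 to 66.5 CPM.

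The next 5 annotated genes include 3 for heme proteins or heme synthesis, and their levels were far apart. Mycth_112322, a globin (an oxygen-binding heme protein), had 6841 and 6564 CPM in Δcre-1 against 106 and 496 CPM in WT on glucose. Mycth_112612, coproporphyrinogen III oxidase of heme synthesis, had 2746 and 2772 CPM against 122 and 360.5 CPM, and Mycth_102965, a cytochrome P450 (a heme monooxygenase), 161 and 157 CPM against 8 and 8.21 CPM. The globin and the oxidase differed several-fold between the WT libraries, replicate 2 being higher for both. Mycth_109638, a sterol desaturase, had 5085 and 5268 CPM in Δcre-1 against 359 and 716 CPM in WT. Mycth_112204, the ATPase F0 subunit C that forms the proton-carrying ring of ATP synthase, had 2545 and 2597 CPM against 262 and 347 CPM.

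The remaining annotated genes were Mycth_110532, a small heat shock protein of the Hsp20 family that keeps unfolded proteins from aggregating, Mycth_107295, and Mycth_2062265, a protein with an immunoglobulin E-set fold. Mycth_107295 carries the text aflatoxin biosynthesis regulatory protein, the name of a zinc cluster activator of the aflatoxin gene cluster in Aspergillus. Mycth_110532 stood at 2424 and 2537 CPM in Δcre-1 against 272 and 166 CPM in WT on glucose, Mycth_107295 at 181 and 176 CPM against 3.7 and 13.3 CPM, and Mycth_2062265 at 531 and 543 CPM against 60.3 and 56.4 CPM. No glycoside hydrolase or glycosidase was among the 13, and the shortened copy holds 23 of them among 865 genes with a text. This says nothing about the genes of the set without a text.

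**Figure D2:**
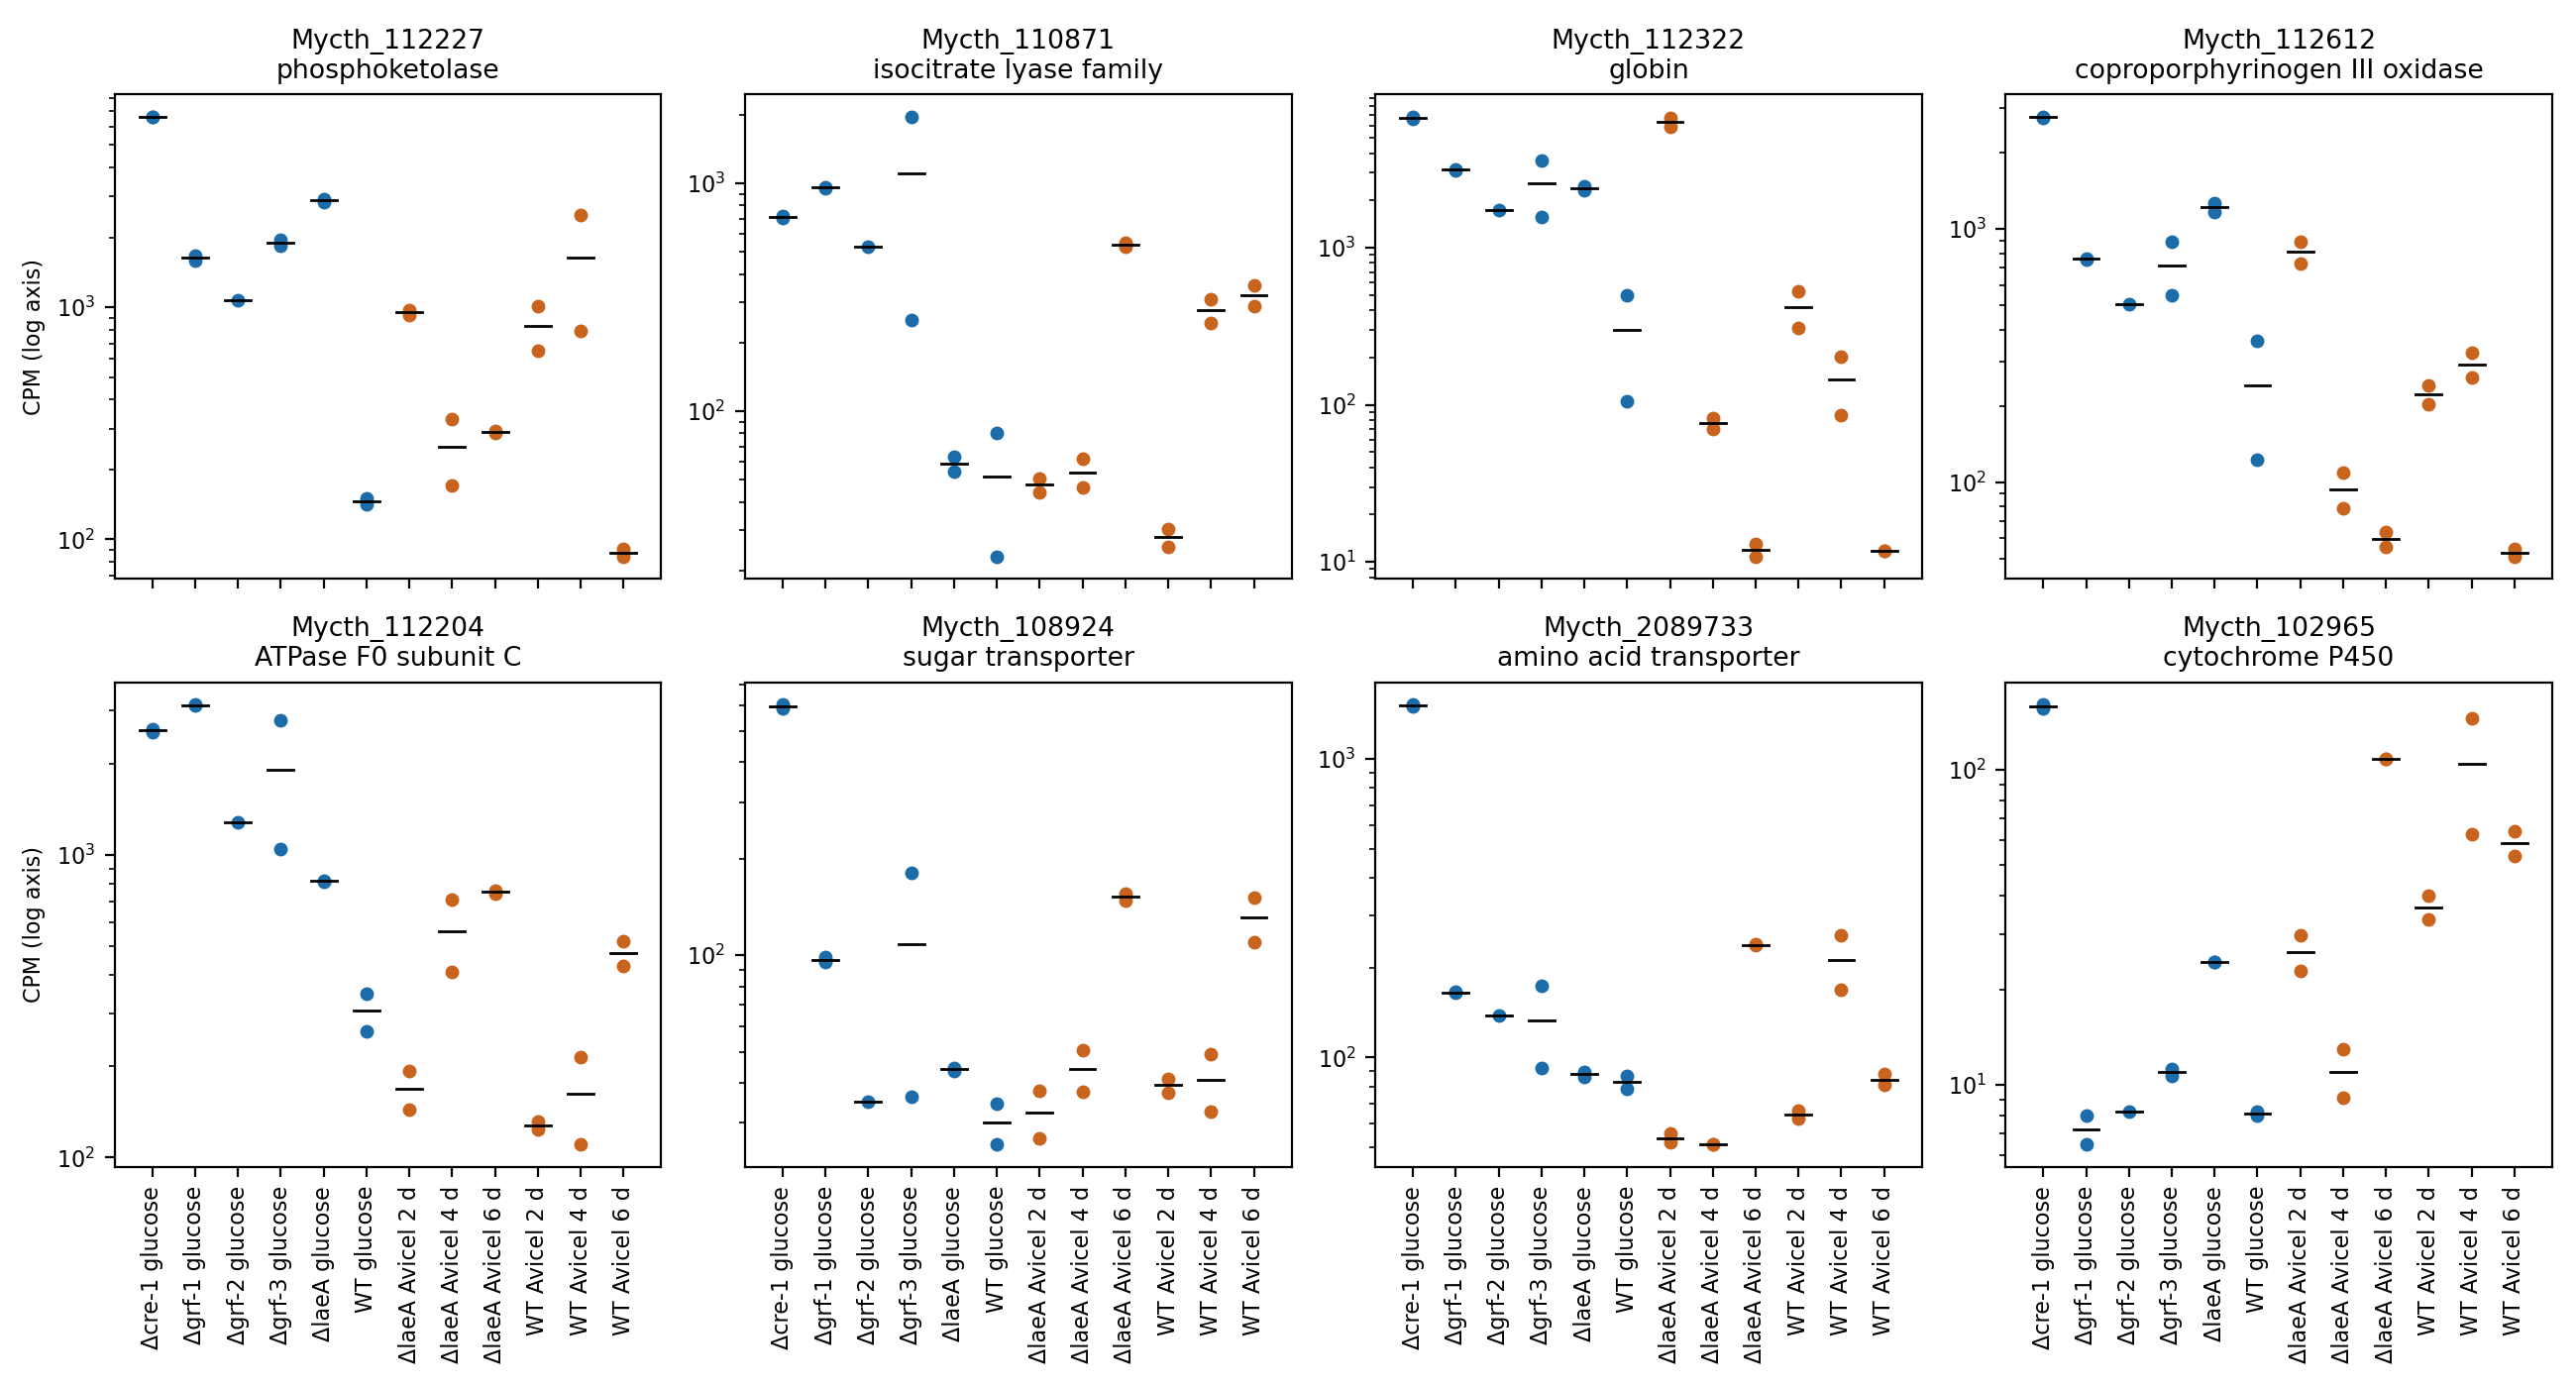
Level in CPM (log axis) of 8 annotated genes in 12 groups, with 1 point per library, a bar for the mean, glucose in blue and Avicel in orange. Mycth_112227 and Mycth_112322 were at 6564 to 6841 CPM in Δcre-1, and Mycth_112322 was again at 5856 and 6696 CPM in ΔlaeA on Avicel at 2 d.

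Most of the genes with the highest levels had no product text. Mycth_87219 led with 8157 and 8327 CPM in Δcre-1 against 397 and 284 CPM in WT on glucose. Mycth_45669 had 5538 and 5606 CPM against 157 and 476 CPM, and Mycth_2310703 5390.1 and 5367 CPM against 115 and 457 CPM. Outside the Δcre-1 libraries and replicate 2 of WT on glucose, Mycth_2310703 was at most at 115 CPM in any library. The other 6 unannotated genes of the 15 highest, Mycth_77206, Mycth_2140820, Mycth_2308157, Mycth_2297364, Mycth_60397 and Mycth_2316564, had 1937 to 4337 CPM in Δcre-1. The largest ratios to WT were those of Mycth_2297080 at 98.8 and Mycth_2132220 at 89.6, both at a few CPM in WT.

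Some of the genes are neighbours. In the gene order of the reference assembly ASM22609v1, which was used for order only, 6 of the 68 genes formed 3 adjacent pairs. The pair with the largest ratios, Mycth_2297080 and Mycth_2132220, stood at 330.1 and 329.9 CPM and 100.1 and 112 CPM in Δcre-1 against 3.48 and 3.2 CPM and 1.21 and 1.15 CPM in WT on glucose. In ΔlaeA on glucose the same pair was at 41.3 and 39.2 CPM and 10.2 and 10.4 CPM, above the 3 Δgrf groups at 1.19 to 8.76 CPM. Mycth_2302433 and Mycth_2302437 were called in the same direction in 6 of the 8 tested comparisons below, and each of the other pairs in 1 of 8, with Mycth_2310703 and Mycth_60397 in opposite directions in 1 more. Mycth_2310703 and Mycth_60397 differed, since Mycth_60397 kept 1002 and 938 CPM in WT on Avicel at 4 d and Mycth_2310703 only 25.8 and 25.5 CPM. Overlap of adjacent genes and the strand setting of the counts were not examined.

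The other mutants on glucose share the WT glucose libraries that chose the genes, so their differences from WT are a description. As a percentage of the Δcre-1 level, the median of the 68 genes was 19.6% in Δgrf-1, 16.2% in Δgrf-2, 20.8% in Δgrf-3, 17.7% in ΔlaeA and 6.05% in WT. Both libraries lay above both WT libraries for 52 of the 68 genes and below them for 9 in Δgrf-1 (34% and 41.5% of all 8827 genes tested), for 47 and 6 in Δgrf-3 (24.4% and 33.8%) and for 58 and 7 in ΔlaeA (26% and 45.9%). The single Δgrf-2 library lay above both for 53 and below both for 9 (37.3% and 42.3%). A gene is called here if it changed at least 2-fold with an adjusted p (Benjamini-Hochberg) under 0.05 in the edgeR quasi-likelihood fit over all genes. By that call 39 genes were higher and 5 lower in Δgrf-1, beside 5.02% and 9.99% of all 8827 genes tested (15% in either direction). The counts were 26 and 0 in Δgrf-2 (1.68% and 3.4%, 5.08% in either), 42 and 4 in Δgrf-3 (5.55% and 7.99%, 13.5% in either) and 40 and 3 in ΔlaeA (6.28% and 5.6%, 11.9% in either). The rule picks genes that were low in these WT libraries, so nothing is read from those counts. In Δcre-1 itself all 68 were higher, which the rule fixed, beside 15.4% of all genes higher and 20.2% lower (35.6% in either direction).

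**Figure D3:**
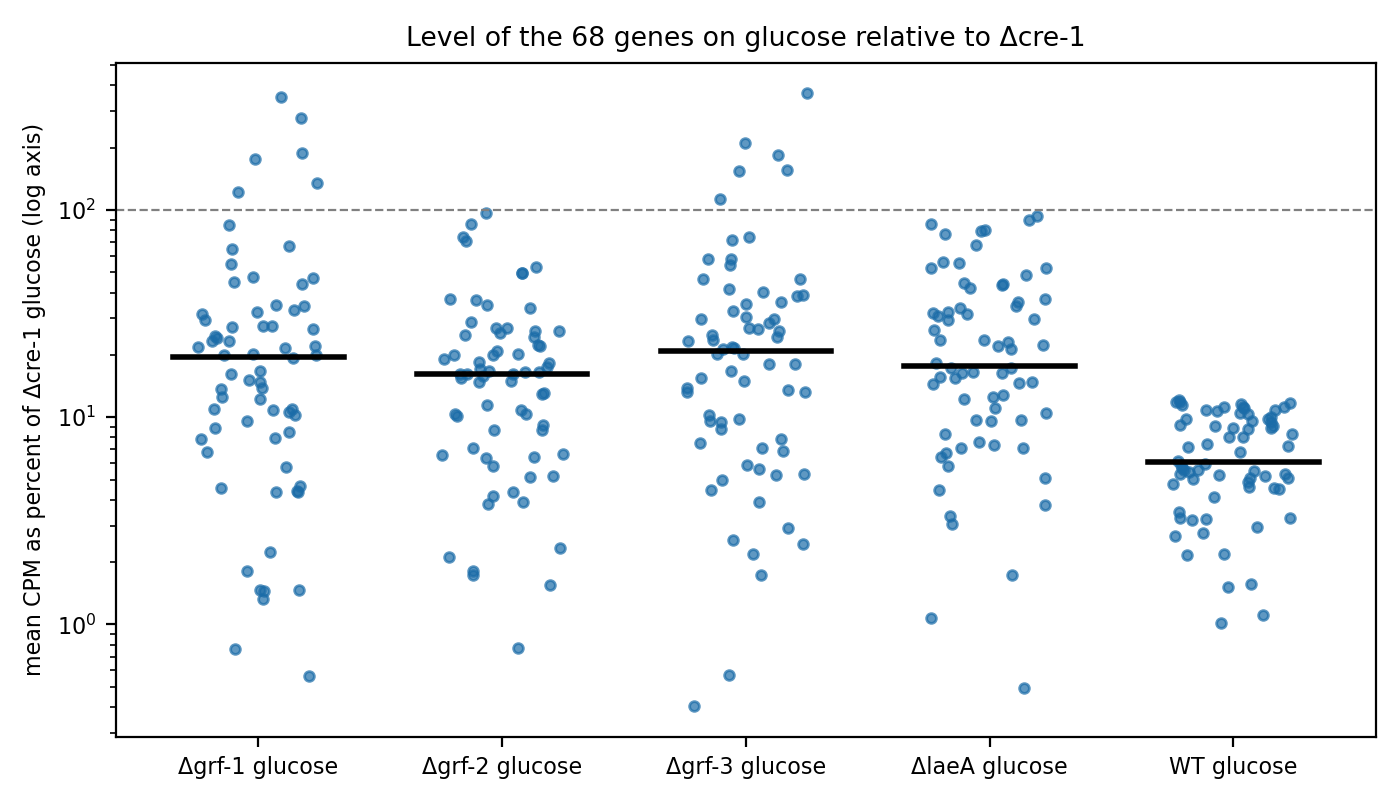
Mean CPM of each of the 68 genes on glucose as a percentage of its mean in Δcre-1 (log axis), with 1 point per gene and a bar for the median, for 4 other mutants and WT. The medians of the mutants lie between 16.2% and 20.8% and that of WT at 6.05%, and 6 genes lie above 100% in each of Δgrf-1 and Δgrf-3.

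How far another mutant reached the limit of the rule, 8 times the WT glucose mean plus 1 CPM, differed by gene. It was reached by 15 genes in Δgrf-1, 4 in Δgrf-2, 14 in Δgrf-3 and 10 in ΔlaeA, and by 23 genes in at least 1 of these 4 groups. Only Mycth_2312467 reached it in all 4, and Mycth_110871, Mycth_2304268 and Mycth_2313014 did so in the 3 Δgrf groups, all by group means. In Δgrf-3 this rested on replicate 1, in which 18 of the 68 genes reached the limit, against 3 in replicate 2. None of these 4 genes reached it in replicate 2. The limit rests on the WT glucose mean, and the rule picks genes that are low there. These counts were made for the 68 genes only, with no share over all genes, so nothing is read from them. Mycth_2313014 had 347 and 331 CPM in Δcre-1, 951 and 928 CPM in Δgrf-1, 292 CPM in Δgrf-2, 1394 and 37.2 CPM in Δgrf-3 and 23.1 and 25 CPM in ΔlaeA, against 11.5 and 7.36 CPM in WT. Mycth_2301730 had 197 and 169 CPM in Δcre-1, 627 and 660.2 CPM in Δgrf-1, 90.9 CPM in Δgrf-2, 1319.7 and 20.1 CPM in Δgrf-3 and 62.1 and 56 CPM in ΔlaeA, against 19.3 and 11.3 CPM in WT. For both genes the 2 libraries of Δgrf-3 lay far apart, so a mean for that strain stands for neither. The isocitrate lyase family gene Mycth_110871 was at 957 and 962 CPM in Δgrf-1, 529 CPM in Δgrf-2 and 1969 and 251 CPM in Δgrf-3, and at 62.9 and 54.5 CPM in ΔlaeA. At the other end, Mycth_2313229 had 468 and 458 CPM in Δcre-1 and 1.39 to 5.60 CPM in the 4 other mutants, against 7.4 and 6.71 CPM in WT.

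ΔlaeA was set against the mean of Δgrf-1, Δgrf-2 and Δgrf-3 on glucose, in libraries the rule did not use. Of the 68 genes 16 were higher and 7 lower in ΔlaeA (33.8%), beside 8.37% higher and 3.51% lower of all 8827 genes (11.9% in either direction). The median difference was 0.48 on the log2 scale, against -0.01 over all genes. The genes were chosen for a high level and a large difference between strains, whereas the share over all genes includes low and steady genes, so the shares here and below are set side by side as a description.

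Mycth_78796 and Mycth_77206, both without a product text, were higher in ΔlaeA by the widest margin. Mycth_78796 had 197 and 163 CPM in ΔlaeA, against 21.2 and 19 CPM in Δgrf-1, 26.1 CPM in Δgrf-2 and 36.8 and 26.1 CPM in Δgrf-3. Mycth_77206 had 1436 and 1237 CPM in ΔlaeA, against 194 and 185 CPM, 189 CPM and 254 and 133 CPM in the same 3 strains. Neither overlapped with any Δgrf library, and the log2 differences were 2.88 ± 0.16 and 2.86 ± 0.23 (± SE, edgeR quasi-likelihood, adjusted p = 2.9e-09 and 2.53e-07). Next came Mycth_2297080 of the pair above (2.57 ± 0.15, edgeR quasi-likelihood adjusted p = 9.09e-09), and its neighbour Mycth_2132220 was also higher (2.36 ± 0.19). Of the annotated genes, the regulator Mycth_107295 (1.82 ± 0.33), the sterol desaturase Mycth_109638 (1.81 ± 0.29), the cytochrome P450 Mycth_102965 (1.56 ± 0.23) and the phosphoketolase Mycth_112227 (1.01 ± 0.32, edgeR quasi-likelihood adjusted p = 0.0203) were higher. The call of Mycth_112227 was lost, with a log2 difference of 0.99 to 1.02, when either ΔlaeA library or Δgrf-3 replicate 2 was left out, and also with library totals in place of TMM (0.95).

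The largest falls in ΔlaeA against the Δgrf mean were those of Mycth_2313014 (-4.54 ± 0.98), Mycth_110871 (-3.76 ± 0.70) and Mycth_2305433 (-3.41 ± 0.74), with edgeR quasi-likelihood adjusted p of 0.00292, 0.00108 and 0.00294. Mycth_2305433 had 22.2 and 19.4 CPM in ΔlaeA against 272 and 277 CPM in Δgrf-1, 120.1 CPM in Δgrf-2 and 682 and 46.5 CPM in Δgrf-3. All 3 genes were below every Δgrf library in ΔlaeA. Fitted with only the groups compared, the calls of Mycth_2313014 and Mycth_2305433 were lost (edgeR quasi-likelihood adjusted p = 0.0685 and 0.0677). The ATPase subunit gene Mycth_112204 was lower as well (-1.21 ± 0.34, edgeR quasi-likelihood adjusted p = 0.0114), a call lost in that fit too, without Δgrf-3 replicate 1 (-0.91) or without either ΔlaeA library (-1.22 and -1.21).

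The rule limited the level in WT on Avicel at 2 d, and it set no limit at 4 d or 6 d. At 2 d the 68 genes stood at a median of 9.34% of their Δcre-1 level in WT. By the fit, as a description, 26 of them were higher and 3 lower in WT on Avicel at 2 d than on glucose (9.99% and 5.64% of all genes, 15.6% in either direction). In WT at 4 d against 2 d 26 were higher and 5 lower (9.18% and 9.86%, 19% in either), and in ΔlaeA against WT at 2 d 21 were higher and 10 lower (4.8% and 10.7%, 15.5% in either). The limit of 8 times the WT glucose mean plus 1 CPM was reached in WT by 10 genes at 4 d and 14 at 6 d, 16 genes in all, and in ΔlaeA by 6 genes at 2 d, 4 at 4 d and 14 at 6 d. Over the 9 groups that the rule did not use, 33 genes reached it in none. On Avicel 25 genes reached it in at least 1 of the 5 groups that the rule did not use, and 13 of these also in another mutant on glucose. No share over all genes was counted for this limit, which rests on the WT glucose level that the rule picks as low. Nothing is read from these counts either.

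Mycth_2304256 and Mycth_2296904 passed their Δcre-1 level many times over on Avicel. Mycth_2304256 had 3457 and 3242 CPM in ΔlaeA and 3042 and 3935 CPM in WT at 6 d, and 395 and 395 CPM in Δcre-1 on glucose. Mycth_2296904 had 4099 and 3699 CPM in ΔlaeA and 3016 and 3621 CPM in WT at 6 d, and 353 and 356 CPM in Δcre-1. Both were between 75.7 and 143 CPM in WT at 2 d. Mycth_51515 followed the same course, with 82.7 and 64.3 CPM at 2 d, 241 and 157 CPM at 4 d and 650.1 and 695 CPM at 6 d in WT.

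Within WT on Avicel, 6 d was compared with 4 d. Of the 68 genes 18 were higher and 14 lower at 6 d (47.1%), beside 12.4% higher and 7.52% lower of all genes tested (19.9% in either direction), and the median change was -0.02 on the log2 scale. With library totals in place of TMM the median of all genes in this comparison moved by 0.26. The largest rises were those of Mycth_2309458, Mycth_78796 and Mycth_2313229. Mycth_2309458 had 324 and 405 CPM at 6 d against 8.39 and 8.1 CPM at 4 d, a log2 change of 5.21 ± 0.24 (edgeR quasi-likelihood adjusted p = 6.74e-10). Mycth_78796 had 461 and 345 CPM against 36.1 and 41.3 CPM (3.12 ± 0.20, edgeR quasi-likelihood adjusted p = 3.3e-08). Mycth_2313229 had 75.1 and 163 CPM against 10.8 and 22.4 CPM, with a wide spread within each day and no overlap between the days (2.59 ± 0.41, edgeR quasi-likelihood adjusted p = 0.000191), a call lost in a fit of only the groups compared (adjusted p = 0.0603).

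The largest falls in WT between 4 d and 6 d were those of Mycth_45669, Mycth_60397 and Mycth_112227. Mycth_45669 had 20.3 and 20.4 CPM at 6 d against 949 and 452 CPM at 4 d, a log2 change of -5.36 ± 0.61 (edgeR quasi-likelihood adjusted p = 1.38e-05). Mycth_60397 had 35.9 and 24.8 CPM against 1002 and 938 CPM (-5.26 ± 0.67), and the phosphoketolase Mycth_112227 84.4 and 90.9 CPM against 2490.0 and 794 CPM (-4.48 ± 0.45). The 2 libraries at 4 d differed several-fold for the phosphoketolase, and both were above both libraries at 6 d. Of the 13 annotated genes 8 were lower and 2 higher at 6 d. The globin Mycth_112322 fell to 11.8 and 11.8 CPM at 6 d, against 203 and 86.4 CPM at 4 d (-3.87 ± 0.64), and the heme synthesis gene Mycth_112612 to 50.9 and 54.3 CPM, against 325 and 258 CPM (-2.73 ± 0.39). Mycth_2062265 (-2.35 ± 0.35), Mycth_107295 (-1.62 ± 0.44), Mycth_2089733 (-1.58 ± 0.23), Mycth_109638 (-1.47 ± 0.36) and Mycth_102965 (-1.09 ± 0.27) were lower too, and Mycth_108924 (1.41 ± 0.50) and Mycth_112204 (1.28 ± 0.38) higher. Without replicate 1 of WT at 4 d, 11 genes were higher and 12 lower, and the calls of Mycth_108924, Mycth_112204, Mycth_102965, Mycth_109638 and Mycth_107295 were lost. The call of Mycth_108924 was lost without any 1 of the 4 WT libraries compared, and those of Mycth_112204 and Mycth_109638 also without replicate 1 of WT at 6 d. With library totals in place of TMM the call of Mycth_102965 was lost too (-0.83).

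**Figure D4:**
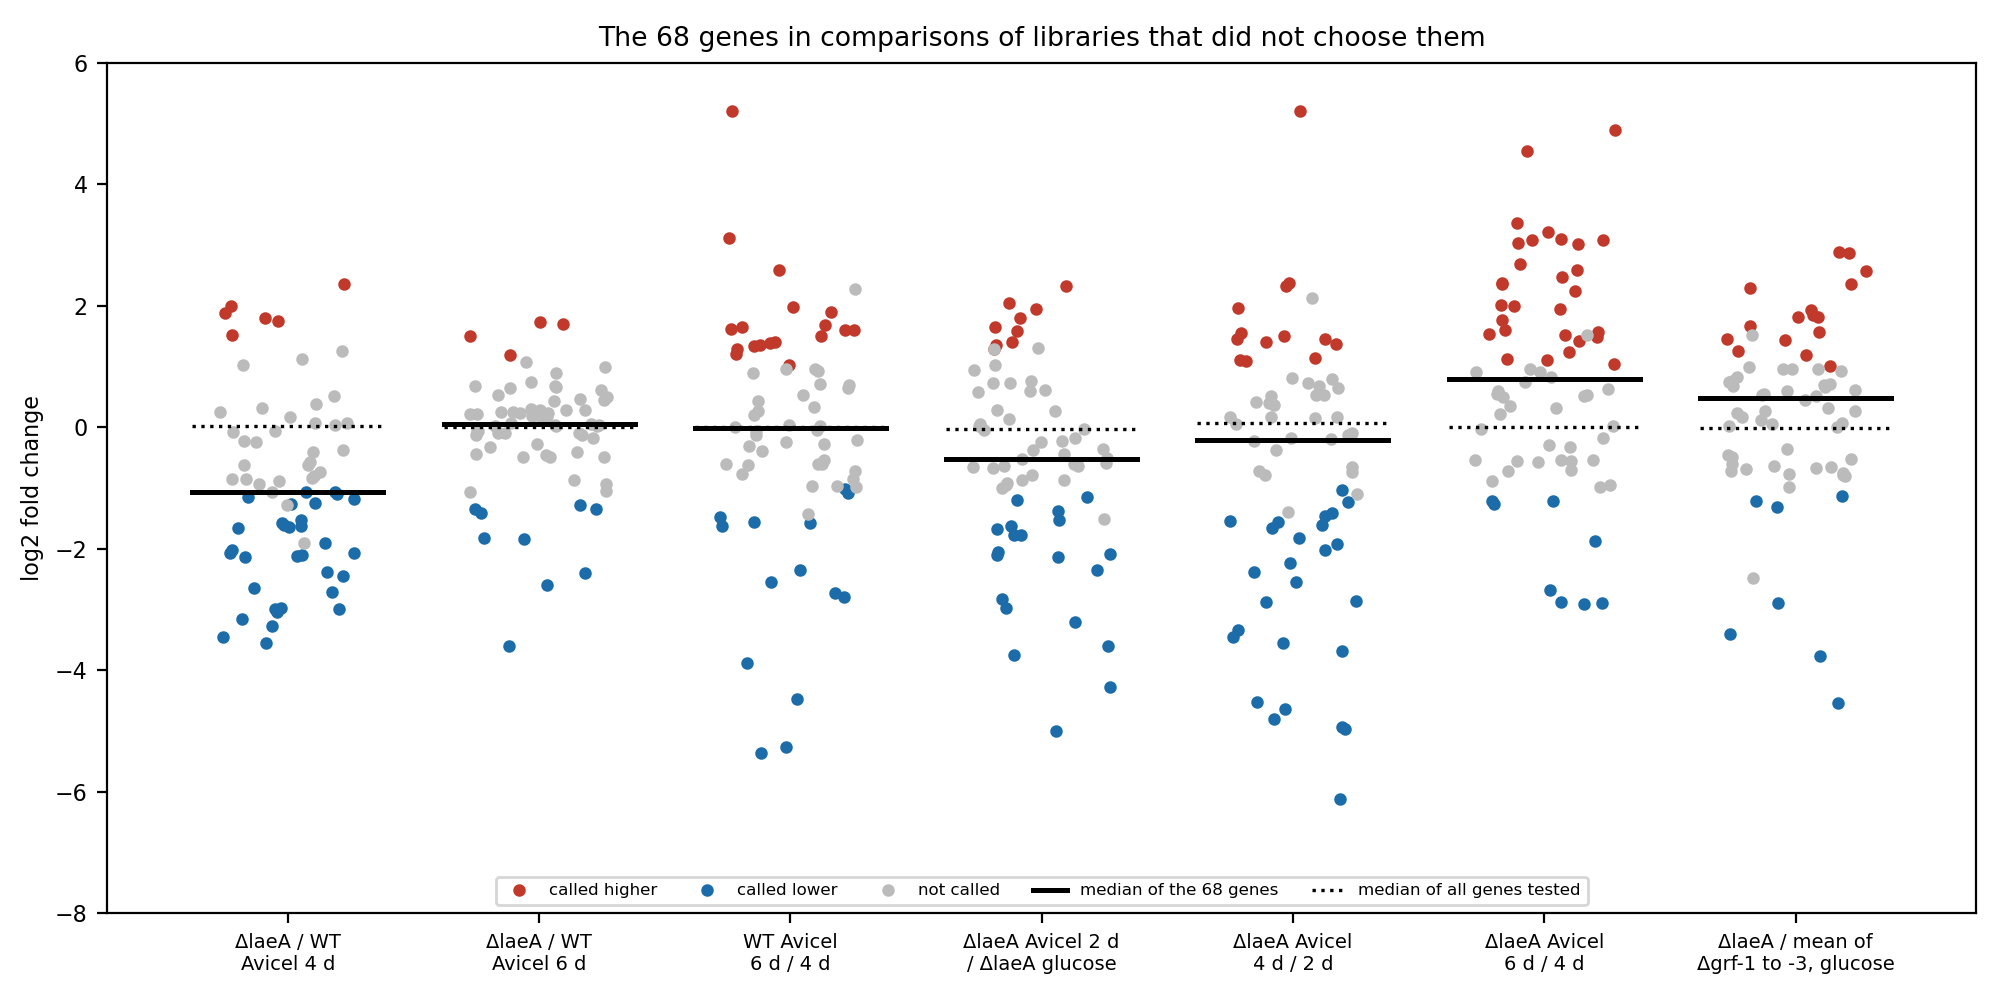
Log2 fold changes of the 68 genes in 7 comparisons of libraries that the rule did not use, with 1 point per gene, red for genes called higher, blue for genes called lower and grey for the rest. Solid bars mark the median of the 68 genes, -1.06 for ΔlaeA against WT at 4 d and 0.79 for ΔlaeA at 6 d against 4 d, and dotted bars the median of all genes tested.

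In ΔlaeA, Avicel at 2 d was compared with glucose, which differ in both carbon source and time. Of the 68 genes 9 were higher and 20 lower on Avicel (42.6%), beside 5.19% higher and 6.76% lower of all genes (12% in either direction), with a median of -0.52. Mycth_2312467 had 3.19 and 4.55 CPM on Avicel against 118 and 116 CPM on glucose (-5.00 ± 0.72, edgeR quasi-likelihood adjusted p = 0.000261). Mycth_60267 had 20.2 and 16.1 CPM against 356 and 310.2 CPM (-4.27 ± 0.85), and Mycth_2303400 6.6 and 10.8 CPM against 105 and 116 CPM (-3.75 ± 0.41). These 3 largest falls were in genes that ΔlaeA held at 105 to 356 CPM on glucose. Among annotated genes Mycth_112204 (-2.35 ± 0.40), Mycth_112227 (-1.68 ± 0.40) and Mycth_109638 (-1.63 ± 0.36) were lower and none was higher by this test. The globin Mycth_112322 had 6696 and 5856 CPM on Avicel and 2477 and 2335 CPM on glucose, a difference that missed the threshold. The largest rises were those of Mycth_2308157 (2.32 ± 0.50), at 2689 and 2022 CPM against 417 and 479 CPM, of Mycth_2302067 (2.04 ± 0.25), and of Mycth_2308988 (1.94 ± 0.25), at 14.1 and 14.9 CPM against 3.52 and 3.63 CPM.

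Between 2 d and 4 d on Avicel, ΔlaeA had 13 of the 68 genes higher and 26 lower (57.4%), beside 13.4% higher and 10.2% lower of all genes (23.6% in either direction). The globin Mycth_112322 showed the largest fall of the set in the 8 tested comparisons, to 82 and 70.5 CPM at 4 d, against 6696 and 5856 CPM at 2 d (-6.12 ± 0.71, edgeR quasi-likelihood adjusted p = 1.11e-05). Mycth_2302437 had 0.297 and 0.629 CPM at 4 d against 19.5 and 14.3 CPM at 2 d (-4.97 ± 0.51), and Mycth_2304268 6.23 and 3.19 CPM against 164 and 184 CPM (-4.94 ± 0.58). Of the annotated genes 7 were lower and 2 higher at 4 d. The regulator Mycth_107295 fell to 4.93 and 9.53 CPM at 4 d, against 211 and 176 CPM at 2 d (-4.52 ± 0.48), and the small heat shock gene Mycth_110532 to 13.2 and 30.4 CPM, against 390.3 and 202 CPM (-3.54 ± 0.61). Mycth_112612 (-2.86 ± 0.39), Mycth_109638 (-2.55 ± 0.38), Mycth_112227 (-1.66 ± 0.40) and Mycth_102965 (-1.03 ± 0.28) were also lower. Higher at 4 d were Mycth_112204 (1.97 ± 0.39) and Mycth_102977 (1.46 ± 0.31), and by far Mycth_2296904, at 598 and 503 CPM against 15.7 and 19.8 CPM (5.20 ± 0.82). Without replicate 1 of ΔlaeA at 4 d the 13 higher genes became 8, and the call of Mycth_102965 was lost without that library or without replicate 2 of ΔlaeA at 2 d.

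From 4 d to 6 d ΔlaeA had 29 of the 68 genes higher and 8 lower at 6 d (54.4%), with a median of 0.79. Of all genes 12.6% were higher and 13% lower (25.5% in either direction). The same 2 ΔlaeA libraries at 4 d enter this comparison and those with 2 d and, below, with WT at 4 d. They also enter the test of the strain difference between the days, so these results are not independent of each other. Mycth_77059 had 165 and 150.3 CPM at 6 d against 4.04 and 5.04 CPM at 4 d (4.90 ± 0.29, edgeR quasi-likelihood adjusted p = 4.03e-09). Mycth_2304256 had 3457 and 3242 CPM against 172 and 70.4 CPM (4.54 ± 0.45), and Mycth_2312265 51.9 and 55.7 CPM against 3.71 and 5.26 CPM (3.37 ± 0.60). Annotated genes that were higher at 6 d were Mycth_110871 (3.09 ± 0.72), at 525 and 548 CPM against 46.3 and 61.8 CPM, Mycth_102965 (3.08 ± 0.29), Mycth_2089733 (2.00 ± 0.24) and Mycth_108924 (1.57 ± 0.50). The 3 largest falls were in Mycth_112322 (-2.90 ± 0.62), Mycth_2064545 (-2.89 ± 0.28), a gene listed with no product text, and Mycth_60397 (-2.87 ± 0.60), and Mycth_109638 was lower too (-1.22 ± 0.36). In a fit of only the groups compared the calls of Mycth_60397 and Mycth_109638 were lost (edgeR quasi-likelihood adjusted p = 0.115 and 0.0833). The calls of Mycth_108924 and Mycth_109638 did not hold when single libraries were left out (1.38 to 1.74 and -1.24 to -0.61), nor did that of Mycth_109638 with library totals in place of TMM (-0.98).

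WT and ΔlaeA on Avicel share no library, so their courses from 4 d to 6 d can be set side by side. Higher at 6 d in both strains were 13 of the 68 genes, beside 453 of all 8827 genes (5.13%). Of the set, 18 were called higher in WT and 29 in ΔlaeA, and of all genes 1092 and 1111. The 13 include Mycth_2304256, Mycth_2296904, Mycth_51515, Mycth_77059, Mycth_2309458 and the pair Mycth_2302433 and Mycth_2302437. Lower in both were 5 of the 68 genes, beside 248 of all 8827 genes (2.81%). These 5 were Mycth_45669, Mycth_60397, Mycth_112322, Mycth_2064545 and Mycth_109638. Called lower in the set were 14 in WT and 8 in ΔlaeA, and of all genes 664 and 1144. Opposite directions were called for 3 genes, beside 2.29% of all genes. Mycth_2089733 and Mycth_102965 were higher at 6 d in ΔlaeA and lower in WT, and Mycth_2302067 was lower at 6 d in ΔlaeA and higher in WT.

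ΔlaeA was then compared with WT on the same day. At 4 d 6 of the 68 genes were higher and 32 lower in ΔlaeA (55.9%), beside 9.17% higher and 9.95% lower of all genes (19.1% in either direction), and the median was -1.06 against 0.01 over all genes. Both ΔlaeA libraries lay below both WT libraries for 46 genes and above them for 10, beside 32.8% and 37.2% of all genes. At 6 d 4 genes were higher and 9 lower (19.1%), beside 2.41% higher and 7.95% lower of all genes (10.4% in either direction), and the median was 0.05. Without replicate 1 of WT at 4 d, 21 genes in place of 32 were lower at 4 d. That library stood apart from replicate 2 for 8 of the 68 genes (3.80% of all genes were at least 2-fold apart), and its cre-1 level was 1518 CPM against 937 CPM. The part of that difference in the result was not tested.

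At 4 d the lowest values in ΔlaeA relative to WT were those of Mycth_60509, Mycth_2308988 and Mycth_102965. Mycth_60509 had 3.34 and 4.45 CPM in ΔlaeA against 43.3 and 46.4 CPM in WT (-3.56 ± 0.53, edgeR quasi-likelihood adjusted p = 0.000158). Mycth_2308988 had 20.5 and 14.2 CPM against 185 and 189 CPM (-3.44 ± 0.24, edgeR quasi-likelihood adjusted p = 2.43e-08), and the cytochrome P450 Mycth_102965 9.09 and 12.9 CPM against 146 and 62.4 CPM (-3.27 ± 0.29). In each case all ΔlaeA libraries were below all WT libraries. Of the 13 annotated genes 7 were lower, the other 6 being Mycth_112227 (-2.71 ± 0.41), Mycth_110871 (-2.39 ± 0.70), Mycth_2089733 (-2.08 ± 0.24), Mycth_2062265 (-2.03 ± 0.35), Mycth_112612 (-1.65 ± 0.37) and Mycth_107295 (-1.58 ± 0.44). The phosphoketolase had 331 and 172 CPM in ΔlaeA against 2490.0 and 794 CPM in WT, and the isocitrate lyase family gene 46.3 and 61.8 CPM against 310.5 and 244 CPM. The calls of Mycth_110871 and Mycth_107295 were lost without replicate 1 of WT or of ΔlaeA at 4 d, and that of Mycth_110871 also without replicate 2 of ΔlaeA. Fitted with only the groups compared, the calls of Mycth_112227 and Mycth_2062265 were lost (edgeR quasi-likelihood adjusted p = 0.0625 and 0.0903).

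Higher in ΔlaeA at 4 d were Mycth_2302067, at 86.3 and 143 CPM against 19.2 and 24.3 CPM in WT (2.36 ± 0.26, edgeR quasi-likelihood adjusted p = 4.29e-06), Mycth_2305618 (2.00 ± 0.19) and Mycth_2140820 (1.88 ± 0.33). Mycth_2140820 had 2714 and 5101 CPM against 968 and 1095 CPM, and was the most abundant gene of the set in ΔlaeA at 4 d. The ATPase subunit gene Mycth_112204 was the only annotated one that was higher, at 411 and 710.0 CPM in ΔlaeA against 110.3 and 215 CPM in WT (1.74 ± 0.39).

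At 6 d the picture was different for several of these genes. Mycth_112227 had 288 and 294 CPM in ΔlaeA against 84.4 and 90.9 CPM in WT (1.74 ± 0.40, edgeR quasi-likelihood adjusted p = 0.0058), and Mycth_2089733 240.0 and 237 CPM against 81 and 87.9 CPM (1.50 ± 0.23). Both were lower in ΔlaeA at 4 d and higher at 6 d. Mycth_2064545 (1.70 ± 0.27) and Mycth_82268 (1.19 ± 0.21) completed the 4 higher genes. The largest falls were in Mycth_2313229, at 9.28 and 10.4 CPM in ΔlaeA against 75.1 and 163 CPM in WT (-3.60 ± 0.43, edgeR quasi-likelihood adjusted p = 4.31e-05), in Mycth_2302437 (-2.59 ± 0.42) and in Mycth_2309458 (-2.40 ± 0.21), at 69.9 and 68.1 CPM against 324 and 405 CPM.

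The change of the strain difference between the days was tested as an interaction. The ΔlaeA minus WT difference was higher at 6 d than at 4 d for 24 of the 68 genes and lower for 7 (45.6%), beside 11.1% and 12.8% of all genes (23.8% in either direction), with a median change of 0.89 against -0.02 over all genes. All 7 annotated genes that passed had a higher difference at 6 d. The largest changes were those of Mycth_112227 (4.45 ± 0.57), Mycth_102965 (4.17 ± 0.39) and Mycth_2303400 (3.62 ± 0.53), with edgeR quasi-likelihood adjusted p of 3.15e-05, 1.14e-06 and 0.000129. In the other direction were Mycth_2302067 (-3.77 ± 0.36), Mycth_2313229 (-3.54 ± 0.57) and Mycth_78796 (-2.81 ± 0.27). Without replicate 1 of WT at 4 d the counts were 17 and 7. Fitted with only the groups compared, the call of Mycth_2062265 was lost (edgeR quasi-likelihood adjusted p = 0.0659). The call of Mycth_110871 (3.13 ± 0.96) was lost without replicate 1 of WT at 4 d, replicate 2 of WT at 6 d or either ΔlaeA library at 4 d, that of Mycth_107295 (2.26 ± 0.62) without replicate 1 and that of Mycth_112612 (1.84 ± 0.52) without replicate 2 of ΔlaeA at 4 d.

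**Figure D5:**
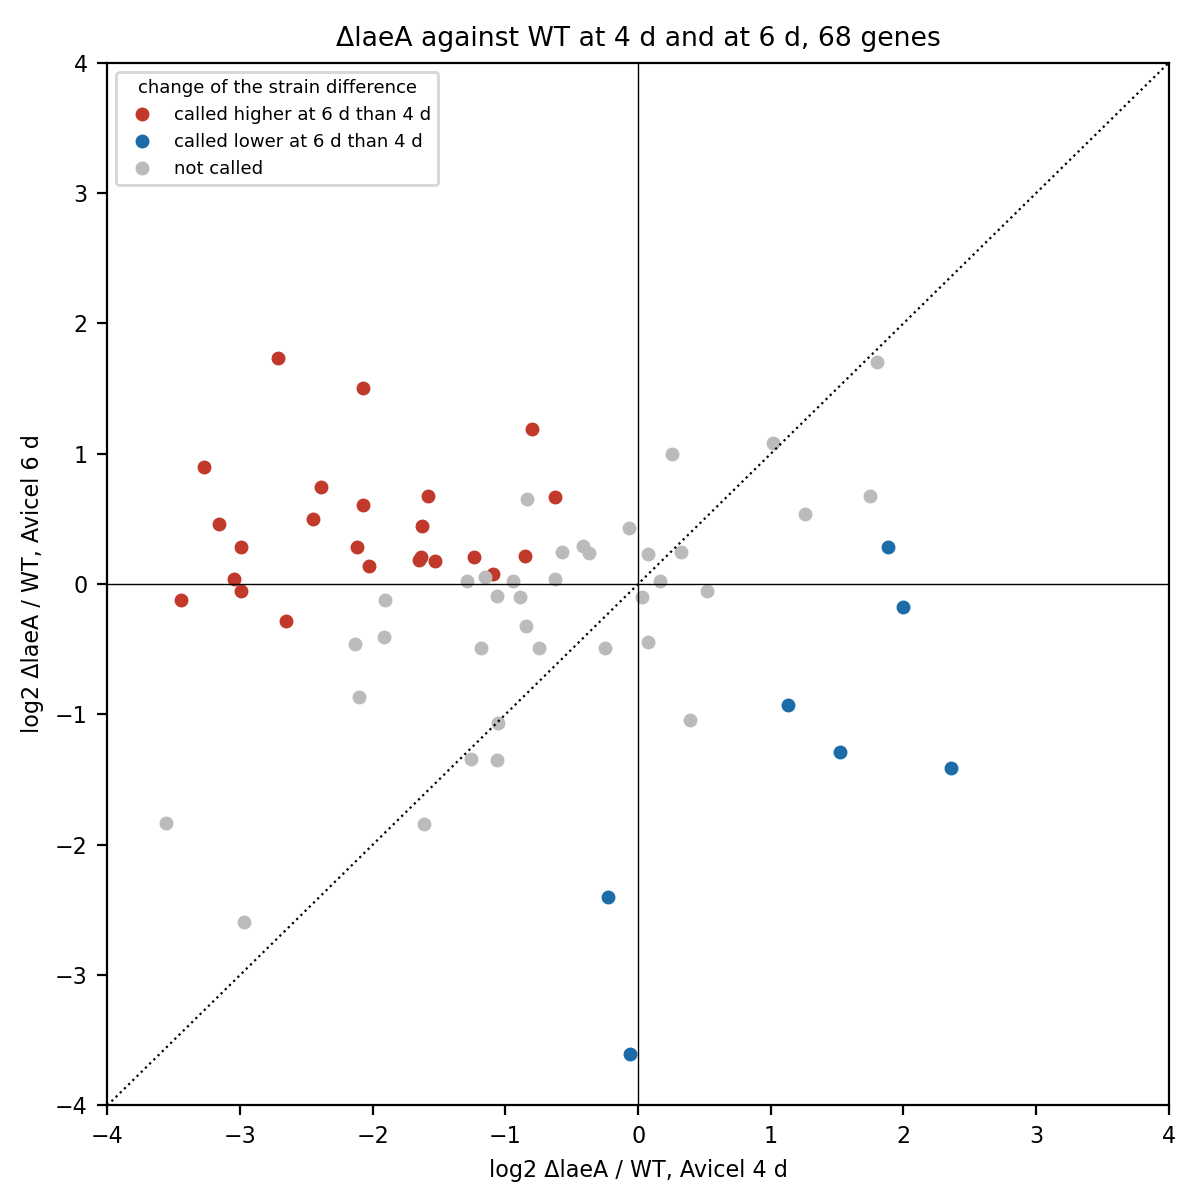
Log2 difference of ΔlaeA against WT on Avicel at 6 d plotted over that at 4 d, with 1 point per gene for the 68 genes, coloured by the test of the change between days. The 24 genes in red lie above the dotted line of equal difference, mostly left of 0 at 4 d and near 0 at 6 d, and the 7 in blue below it.

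Other genes with related product texts in the shortened copy of the study's table gave no uniform picture. The lists end where that copy ends, so each is a part of its gene family and not the whole. Of 14 sugar transporters, 1 of them in the set, 2 were higher and 3 lower in ΔlaeA than in WT at 4 d, with a median of 0.29. Of 17 major facilitator genes, also with 1 in the set, 3 were higher and 1 lower, and of 23 glycoside hydrolases and glycosidases, none of them in the set, 9 were higher and 2 lower with a median of 1.37. Of 13 cytochrome P450 genes tested, Mycth_102965 included, 4 were higher and 2 lower with a median of 0.47. Of 4 amino acid permeases 2 were higher, and of 5 short-chain dehydrogenases 1 was. None of 4 alcohol dehydrogenases tested was called, 1 of 18 peptidases was higher and 3 lower, and 1 of 17 fungal transcriptional regulators was lower, with none of these 5 lists holding a gene of the set. Mycth_110871 was the single gene of the isocitrate lyase and malate synthase list in that copy. In Δcre-1 against WT on glucose, which is a description, the first 4 lists had 4 higher and 4 lower, 2 and 6, 1 and 8, and 3 and 6 genes in the same order. Of the 6 carbon metabolism genes that the study followed, 5 of which the rule set aside by name, 2 were higher and 3 lower in ΔlaeA than in WT at 4 d. The study chose those 6 genes on these samples.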

How the data were processed

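Reads from mycelial RNA were aligned by TopHat2 2.0.8b, and the whole read counts per gene that the authors deposited came from HTSeq, which the processing notes give as version 0.5.4p2 and the methods with another number. Neither the build of the genome nor whether counting used strand is given in the sources used here. For 1 column, named for replicate 1 of Δgrf-2, the authors deposited RPKM values in place of counts. These RPKM values equal those computed from the 2 Δgrf-1 libraries, with whole-base lengths to within 0.01 base at 8865 of 8865 genes above 0, so this column was used only for gene lengths, 1 column was left out of all comparisons, and Δgrf-2 was assumed to vary like the other groups. Of the table, 9110 genes were read and 2 lines that name no gene and hold column totals were left out.

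Libraries were grouped by their titles. The rule used CPM by library totals. All 23 libraries entered 1 model with a term for each group (edgeR 4.0.16 under R 4.3.3). Library sizes were scaled by TMM, quasi-likelihood dispersions were estimated robustly, and filterByExpr kept 8827 genes, all 68 of the set among them, with 11 residual degrees of freedom. Calls needed a log2 fold change of 1 or more in either direction and p under 0.05 after Benjamini-Hochberg adjustment over all genes tested. The floor of 3 counts covers counting error only, and the SE come from the fit across libraries. The fit was tried on simulated data drawn for ΔlaeA against WT at 6 d on 8757 genes. At an adjusted p under 0.05 alone, 65% of genes changed 2-fold and 92% of genes changed 4-fold passed, and 0.174% of unchanged genes. The fold limit of the call was not applied there.

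The members, lists and tests were chosen with earlier results of these data known. Named are genes with a product text in the study's table, the 15 highest in Δcre-1, the 3 largest called rises and falls of each tested comparison, neighbours in gene order (9087 genes matched the reference ASM22609v1, all 68 among them), and the 2 genes on either side of each limit of the rule. Others named were chosen after their values were seen. Lists were formed by product text for sugar transporters, major facilitator genes, glycoside hydrolases or glycosidases, cytochrome P450 genes, amino acid permeases, alcohol and short-chain dehydrogenases, peptidases or proteases, fungal transcriptional regulators and isocitrate lyase or malate synthase, and by ID for the study's 6 carbon metabolism genes. Promoter and protein sequences were not used here, so the planned search for CRE-1 motifs was not run. Alternatives were DESeq2 size factors, DESeq2 1.42.0, library totals, other count filters, adjusted p alone, only the groups compared, replicate number as a block, each library left out, other limits of the rule and, chosen after seeing the data, a fit without both Δgrf-3 libraries. Figures were drawn with Python 3.11.15, pandas 2.3.3 and matplotlib 3.10.9.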

Additional observations from a re-analysis of the deposited data

Results flagged for a closer look

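The difference between ΔlaeA and WT on Avicel itself changed between the days 4 and 6 for 31 of the 68 genes, beside 23.8% of all genes tested, by the interaction in the edgeR quasi-likelihood fit. As the log2 difference at 6 d minus that at 4 d, the phosphoketolase gene Mycth_112227 had 4.45 ± 0.57 (± SE, 11 residual degrees of freedom), the cytochrome P450 gene Mycth_102965 4.17 ± 0.39 and Mycth_2303400 3.62 ± 0.53. For Mycth_112227 the libraries were at 288 and 294 CPM in ΔlaeA against 84.4 and 90.9 CPM in WT at 6 d, and at 331 and 172 CPM in ΔlaeA against 2490.0 and 794 CPM in WT at 4 d, so the order of the strains differed between the days. Mycth_2303400 was at 177 and 182 CPM in ΔlaeA against 146 and 117 CPM in WT at 6 d, and at 20.2 and 17.7 CPM in ΔlaeA against 170.2 and 163 CPM in WT at 4 d.

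The other annotated genes with such a change were the amino acid transporter gene Mycth_2089733 (3.58 ± 0.33), the isocitrate lyase family gene Mycth_110871 (3.13 ± 0.96), Mycth_107295 (2.26 ± 0.62), named for an aflatoxin regulator, Mycth_2062265 (2.17 ± 0.48) and Mycth_112612 of heme synthesis (1.84 ± 0.52). In all 8 of these genes the ΔlaeA minus WT difference was the higher one at 6 d. The change ran the other way for Mycth_2302067 (-3.77 ± 0.36), Mycth_2313229 (-3.54 ± 0.57) and Mycth_78796 (-2.81 ± 0.27). Mycth_2302067 was at 36.4 and 36.2 CPM in ΔlaeA against 125 and 71.2 CPM in WT at 6 d, and at 86.3 and 143 CPM in ΔlaeA against 19.2 and 24.3 CPM in WT at 4 d. Replicate 1 of WT at 4 d enters all of these values. Without it 24 genes passed, all 24 of them among the 31. Without replicate 2 of ΔlaeA at 4 d 24 genes passed as well, 22 of them among the 31.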

How the results depend on the processing

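The gene set moved most with the limits of its rule. A fold of 4 in both ratio limits gave 149 genes (59 of the 68 among them), a fold of 16 gave 32 (31 among them), and TMM-scaled totals gave 105 (67 among them), and the other limits gave 65 to 73. Without single libraries it held 65 to 76 genes, 65 without replicate 1 (59 shared) and 76 without replicate 2 (63 shared) of WT on glucose. Calls at the adjusted p alone gave 36 genes in place of 23 for ΔlaeA against the Δgrf mean. Without single libraries the counts of called genes were 27 to 43 for ΔlaeA against WT at 4 d, 11 to 15 at 6 d, 23 to 34 for WT at 6 d against 4 d, 24 to 31 for ΔlaeA at 2 d against glucose, 32 to 42 at 4 d against 2 d, 30 to 38 at 6 d against 4 d, 20 to 27 for ΔlaeA against the Δgrf mean and 24 to 40 for the interaction. The other alternatives kept every total count within 1.5 times, and without both Δgrf-3 libraries, an alternative chosen after seeing the data, the Δgrf comparison gave 29. Fitted with only the groups compared, that comparison had 16 genes higher and 4 lower, in place of 16 and 7, and ΔlaeA at 6 d against 4 d had 5 lower genes in place of 8, or 13 at the adjusted p alone. Of 2790 values of named genes under alternatives 2741 kept direction and call, 49 lost the call (22 results) and 0 reversed. The cause was not tested.

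The deviations of equally numbered libraries correlated with r between -0.150 and 0.124 over 55 pairs of groups, so no strong shared effect of the replicate number was seen. Such values cannot show whether equally numbered libraries were handled together. With the replicate number as a block the counts were 38, 13, 30, 29, 38, 37, 23 and 31 in the order above, and the call of Mycth_112227 against the Δgrf mean was lost (0.97). The promoter search for CRE-1 motifs was not run. With 2 libraries a group, 65% of simulated 2-fold changes passed the adjusted p alone for ΔlaeA against WT at 6 d. The call also needs an estimate of at least 2-fold, which was not applied there, so a 2-fold change can miss the call.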
